A study of Homo sapiens with 16 samples.

Results

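10 genes of lipid droplets and fatty acid handling were followed across 2 human acute myeloid leukaemia lines with and without a drug. They were PLIN2, PLIN3, HILPDA, DGAT1, DGAT2, PNPLA2, ABHD5, G0S2, ACSL1 and CPT1A, 10 of the 34618 genes of the counts table, found by matching their symbols to its Ensembl identifiers. They were selected on earlier results of these same libraries (which expression values were used is not recorded). Their values and calls are therefore given as a description, and the calls are no independent support. KG1A is an immature myeloid line and U937 a promonocytic line. Cells of each line received either NEL (10 µM) or its vehicle DMSO, and each of the 4 groups has 4 libraries, 16 in all. The labels do not spell out NEL and give no treatment time, and all cells were grown in medium with dialyzed serum. Both are single established lines, and the labels do not say whether replicate libraries stem from different cultures, so p-values measure only the spread between libraries, which may be technical.

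A lipid droplet is a store of neutral lipid, mainly triacylglycerol and sterol esters, under a coat of phospholipid and proteins such as the perilipins. Diacylglycerol acyltransferases (DGAT1, DGAT2) carry out the last step of triacylglycerol synthesis, and the lipase PNPLA2, also called ATGL, takes the first fatty acid off again, helped by ABHD5 and held back by G0S2 and HILPDA. ACSL1 couples free fatty acids to coenzyme A, and CPT1A passes the activated fatty acids into the carnitine shuttle towards oxidation in mitochondria. Macrophages and monocytes are known to store lipid in droplets coated by PLIN2.

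The deposited RNA counts summed to 10641567 to 11777684 per library. Levels are given as CPM, the share of a library's counts scaled by TMM factors over all 16 libraries. By counting error alone, a gene without any count could still be as high as 0.255 to 0.282 CPM, taken before TMM scaling. CD34 averaged 910 CPM in KG1A with DMSO and 0.325 CPM in U937, whereas CD33 (87.8 CPM), CD4 (187 CPM) and LYZ (70.0 CPM) were at or below 0.262 CPM in KG1A with DMSO. MPO, another myeloid marker, was near 0 in both lines (0.0712 and 0.393 CPM with DMSO). Of 6 adipocyte markers, whose summed level was 10.3 to 13.8 CPM in KG1A and 1.49 to 2.37 CPM in U937, ADIPOQ was at 0 in all 16 libraries. LIPE, which is among those 6 and also in a list below, averaged 12.4 CPM in KG1A and 1.70 CPM in U937 with DMSO. PLIN1, CIDEC, FABP4 and LEP averaged at most 0.501 CPM in any group. Libraries 1 and 3 stood apart from libraries 2 and 4 in every group. Between DMSO libraries or NEL libraries of 1 line, the chi-square per gene was 1.26 to 2.05 within such a set and 4.14 to 9.14 between sets, and no pair agreed within sampling noise. The mitochondrially encoded share of counts was higher in libraries 1 and 3 (9.79% against 8.46% in KG1A with DMSO, 7.09% against 5.96% in U937 with NEL). It was also lower with NEL by its means, at 9.12% ± 0.920 with DMSO and 8.54% ± 1.14 with NEL in KG1A (SD, n = 4). In U937 it was at 8.05% ± 1.04 and 6.53% ± 0.678, and in both lines the groups of 4 overlapped. Within a set the U937 libraries did not overlap. Their means were 8.90% and 7.09% in libraries 1 and 3 and 7.21% and 5.96% in libraries 2 and 4. In KG1A, libraries 1 and 3 overlapped and libraries 2 and 4 did not. The part of this share in the results below was not tested. The labels give no batch, so values within each set are given where they bear on a gene.

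PLIN2 rose in both lines and was the member with the largest fold change in each, and its NEL effect was larger in U937. HILPDA rose in U937 and was not called in KG1A. PNPLA2 and ACSL1 were called higher in both lines and CPT1A lower in both, while DGAT1 was called lower in KG1A and ABHD5 in U937. The KG1A call of PNPLA2 and the U937 call of CPT1A were lost under several alternative settings (below). PLIN3 was called in neither line, and G0S2 had too few counts to test. In all, 3 of the 10 members were called higher and 2 lower in KG1A (8 tested), and 4 higher and 2 lower in U937 (9 tested). A call was an adjusted p under 0.05 in edgeR's quasi-likelihood test over all genes. Of all genes tested in KG1A, 23.6% were called higher and 23.6% lower, and in U937 34.6% higher and 34.7% lower. Those counts have to be read against a background in which many genes moved. The median log2 fold change of the tested members was 0.18 in KG1A and -0.04 in U937, beside -0.0045 and -0.0044 over all genes tested.

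**Figure D1:**
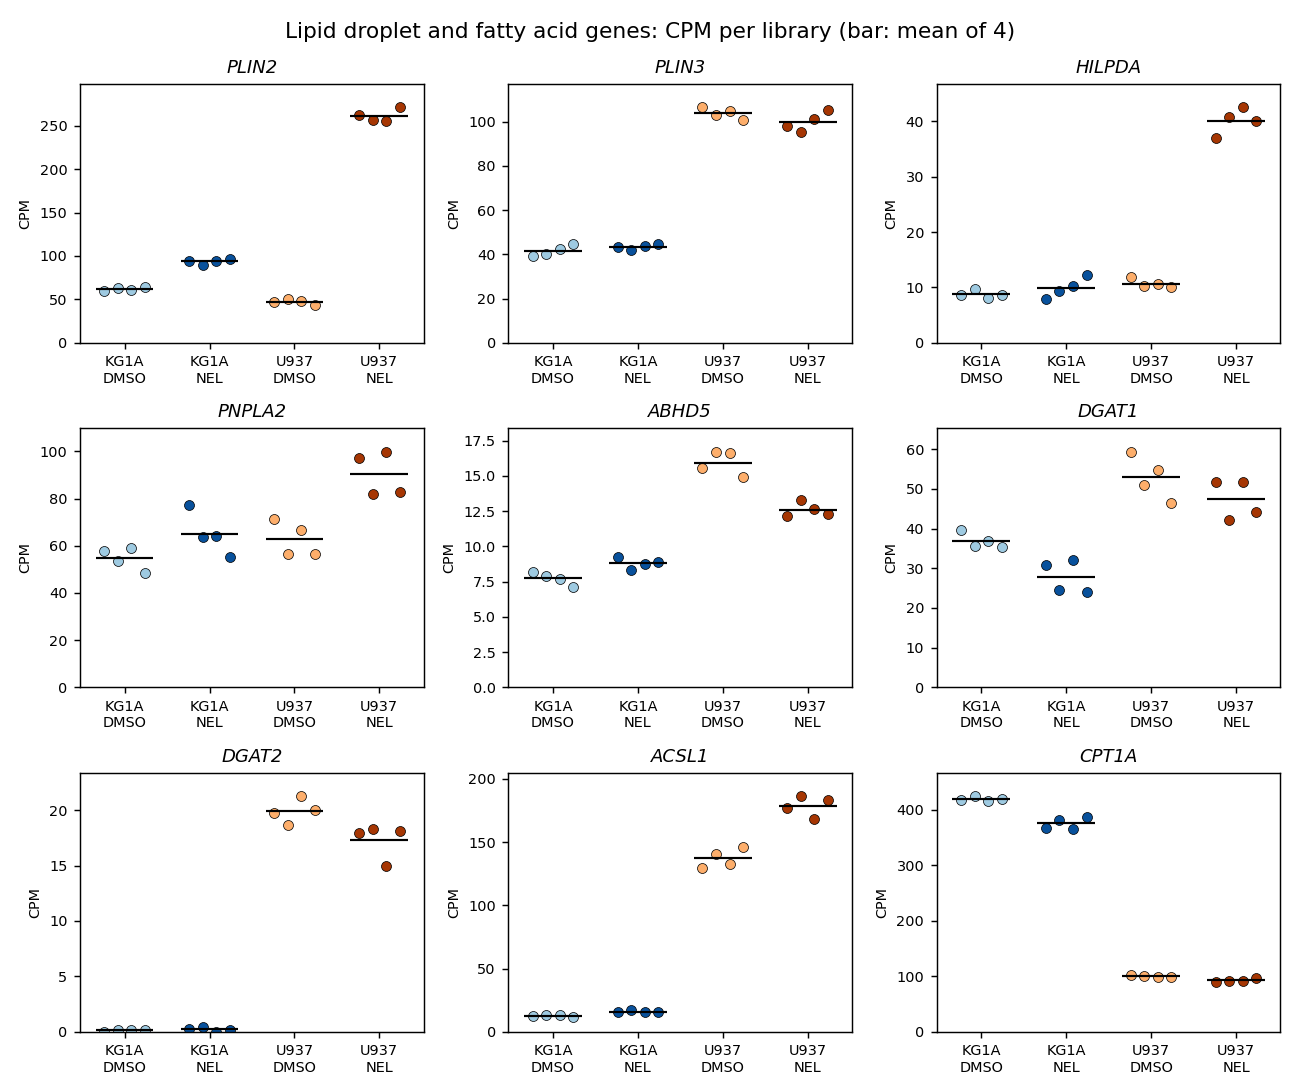
CPM of 9 members in each of the 16 libraries, by line and treatment, with libraries 1 to 4 from left to right in a group and a bar at the mean of 4; G0S2 is left out because it had 3 counts in all. PLIN2 and HILPDA in U937 with NEL stand far above the other groups, DGAT2 and ACSL1 separate the lines, and the DGAT1 and PNPLA2 points alternate between odd and even libraries.

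PLIN2 is the perilipin of most cells that hold small droplets, and its protein is stable when bound to them. In KG1A it stood at 60.0, 63.3, 60.8 and 64.5 CPM in DMSO libraries 1 to 4 and at 94.5, 89.9, 94.8 and 96.4 CPM in NEL libraries 1 to 4. In U937 it stood at 47.0, 49.9, 48.2 and 43.9 CPM with DMSO and at 262, 257, 256 and 271 CPM with NEL. In both lines every NEL library was above every DMSO library, and the level in U937 was below that in KG1A without NEL and above it with NEL. The log2 fold change was 0.59 ± 0.04 (SE) in KG1A, or 1.50-fold, and 2.49 ± 0.05 in U937, or 5.61-fold. The sets of libraries 1 and 3 and of libraries 2 and 4 gave 0.64 and 0.54 in KG1A and 2.47 and 2.51 in U937. Here and below, RNA from fewer cells of a type and less RNA per cell cannot be told apart in bulk samples.

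PLIN3, also called TIP47, is a perilipin that is soluble in the cytosol and binds nascent droplets. Its level was 39.3, 40.3, 42.4 and 44.7 CPM in KG1A with DMSO and 43.2, 42.0, 43.8 and 44.7 CPM with NEL. U937 held 107, 103, 105 and 101 CPM with DMSO and 97.9, 95.4, 101 and 105 CPM with NEL. The treated and untreated libraries overlapped in both lines, and the lines were apart in every library. The log2 fold changes were 0.05 ± 0.05 in KG1A and -0.04 ± 0.04 in U937, and neither was called. An unnamed antisense gene overlaps PLIN3 (7.94 CPM in KG1A and 17.4 CPM in U937 with DMSO), and how strand was set when reads were counted is not known here.

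The promoters of PLIN2, PLIN3 and PNPLA2 are shown because PLIN2 and PNPLA2 were called higher in both lines and the paralogue PLIN3 in neither. ACSL1, also called higher in both lines, has 5 such stretches, which held none of the letters searched and are not printed. They are the 250 bases before the RefSeq start site on build GRCh38.p14, read 5′ to 3′ on the gene's strand. The counts themselves use the older build GRCh37. RefSeq promoters were held for 7 of the 10 members. Capitals mark matches, on either strand, to ACGTG (a core of binding letters of hypoxia-inducible factors, which lies inside CACGTG), to TATAAA and to AGGTCA (the unit of nuclear receptor elements). The PLIN2 stretch is chr9:19127493-19127742 on the minus strand, the PNPLA2 stretch chr11:818664-818913 on the plus strand and the PLIN3 stretch chr19:4867668-4867917 on the minus strand.
PLIN2: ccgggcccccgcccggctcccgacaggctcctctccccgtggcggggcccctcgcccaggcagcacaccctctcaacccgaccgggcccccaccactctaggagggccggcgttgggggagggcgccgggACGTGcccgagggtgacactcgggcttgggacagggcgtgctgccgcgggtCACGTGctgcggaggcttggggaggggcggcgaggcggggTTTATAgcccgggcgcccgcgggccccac
PNPLA2: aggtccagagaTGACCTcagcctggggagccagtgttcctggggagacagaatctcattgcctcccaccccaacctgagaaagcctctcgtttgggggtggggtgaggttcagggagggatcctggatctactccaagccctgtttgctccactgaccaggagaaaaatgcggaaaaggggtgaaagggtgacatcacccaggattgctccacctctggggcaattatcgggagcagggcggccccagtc
PLIN3: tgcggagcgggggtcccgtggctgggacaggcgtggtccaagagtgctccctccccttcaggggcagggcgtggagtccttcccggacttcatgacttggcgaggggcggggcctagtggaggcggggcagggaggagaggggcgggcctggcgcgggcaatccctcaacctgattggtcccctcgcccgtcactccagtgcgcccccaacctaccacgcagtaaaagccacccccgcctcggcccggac
PLIN2 held ACGTG at -120 to -116, and a CACGTG whose overlapping matches on the 2 strands span -69 to -64, counted from the start site, and TATAAA on the opposite strand at -29 to -24. PNPLA2 held AGGTCA on the opposite strand at -239 to -234, and PLIN3 held none of the letters searched. Other forms of the hypoxia core, such as the GCGTG in the PLIN2 and PLIN3 stretches, were not searched for and are unmarked. Among 35116 RefSeq promoter stretches of the same length, 18.5% held ACGTG, 6.34% CACGTG, 10.7% TATAAA and 12.1% AGGTCA. The direct repeat of AGGTCA with 1 base between, the textbook element of PPAR receptors, was in 6 of the 35116 stretches and in none of the 3 shown. A match is a run of letters, and its absence says only that the letters are not in this window.

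Among the perilipins of a library, compared per length on the deposited RPKM scale, the balance moved towards PLIN2. PLIN2 made up 44.9% ± 0.960 (SD, n = 4) of the summed RPKM of PLIN1 to PLIN5 in KG1A with DMSO and 54.2% ± 0.305 with NEL. In U937 it made up 19.8% ± 0.790 with DMSO and 57.4% ± 0.719 with NEL, while PLIN3 went from 78.9% to 39.7%. The ratio of PLIN2 to PLIN3 RPKM was 0.825 and 1.19 in KG1A and 0.251 and 1.45 in U937, without and with NEL. These shares do not overlap between treated and untreated libraries of a line, and they rest on the same PLIN2 counts as above.

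The other perilipins were minor. PLIN4 was at 0.808 ± 0.507 CPM in KG1A with DMSO and 0.903 ± 0.353 CPM with NEL, and was not tested there. In U937 it stood at 2.11, 3.38, 2.55 and 3.28 CPM with DMSO and at 13.9, 13.8, 13.6 and 12.0 CPM with NEL (log2 fold change 2.25 ± 0.13, adjusted p = 4.26e-09 in edgeR). PLIN5, known from oxidative tissues, had 0 counts in all KG1A libraries and rose in U937 from 21 counts over the 4 DMSO libraries to 96 over the 4 NEL libraries (log2 fold change 2.12 ± 0.38, edgeR adjusted p = 0.000219). PLIN1, the adipocyte perilipin, had 3 to 24 counts per group and was tested in neither line.

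**Figure D2:**
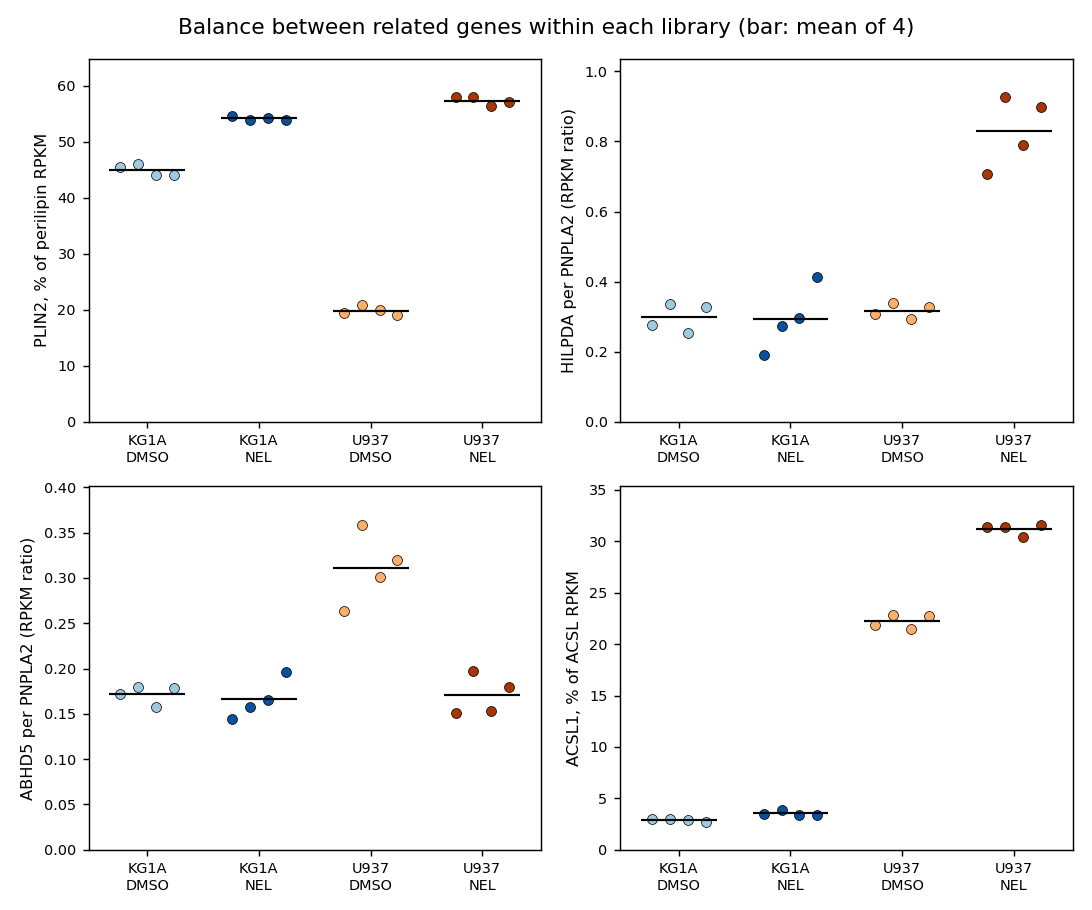
Within-library balance on the RPKM scale in the 16 libraries, by line and treatment, each point 1 library and each bar a mean of 4. The PLIN2 share of perilipin RPKM reaches 54.2% in KG1A and 57.4% in U937 with NEL, the HILPDA per PNPLA2 ratio is high in U937 with NEL, and the ABHD5 per PNPLA2 ratio is high in U937 with DMSO.

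HILPDA is a small hypoxia-inducible droplet protein that inhibits PNPLA2. In KG1A it was at 8.54, 9.72, 8.07 and 8.57 CPM with DMSO and at 7.93, 9.41, 10.3 and 12.3 CPM with NEL. In U937 it was at 11.9, 10.3, 10.5 and 10.0 CPM with DMSO and at 37.0, 40.8, 42.5 and 40.1 CPM with NEL. The KG1A groups overlapped, and each U937 NEL library was above all the other libraries. The log2 fold change was 0.18 ± 0.13 in KG1A and 1.93 ± 0.08, or 3.80-fold, in U937. HILPDA-AS1 and a second overlapping gene, both on the strand of HILPDA in the deposited coordinates, averaged at most 1.33 CPM in any group.

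PNPLA2 opens triacylglycerol breakdown at the droplet surface. KG1A held 57.6, 53.4, 59.0 and 48.5 CPM with DMSO and 77.3, 63.8, 64.3 and 55.0 CPM with NEL. U937 held 71.5, 56.6, 66.8 and 56.5 CPM with DMSO and 97.4, 81.8, 99.9 and 83.0 CPM with NEL. The KG1A groups overlapped and the U937 groups did not, and in all 4 groups libraries 1 and 3 were above libraries 2 and 4. The log2 fold change was 0.24 ± 0.09 in KG1A and 0.55 ± 0.08 in U937. For KG1A it was 0.27 within libraries 1 and 3 and 0.22 within libraries 2 and 4, and for U937 0.54 and 0.56. The KG1A call was lost without DMSO library 2 (log2 fold change 0.23), DMSO library 4 (0.19), NEL library 1 (0.15), NEL library 2 (0.25) or NEL library 3 (0.25). These fits had no term for the library set. The call held in libraries 1 and 3 alone (edgeR adjusted p = 8.02e-05) and in libraries 2 and 4 alone (edgeR adjusted p = 0.00237). With the replicate number as a block it also held (edgeR adjusted p = 2.96e-07). An unnamed antisense gene that overlaps PNPLA2 went from 10.3 to 12.9 CPM in KG1A and from 14.6 to 19.8 CPM in U937, and whether reads were split between the pair cannot be told.

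ABHD5, also called CGI-58, is the activator of PNPLA2. Its level in KG1A was 8.16, 7.91, 7.69 and 7.15 CPM with DMSO and 9.22, 8.32, 8.77 and 8.93 CPM with NEL, a difference that was not called (log2 fold change 0.18 ± 0.10). It was called in KG1A on the deposited RPKM values, at 0.21 with a pseudocount of 0.5 and 0.24 with 0.1. In U937 it fell from 15.6, 16.7, 16.6 and 14.9 CPM with DMSO to 12.2, 13.3, 12.7 and 12.3 CPM with NEL, a log2 fold change of -0.32 ± 0.08. Neither line's groups overlapped, and the lines moved in opposite directions by their means. ABHD5 is overlapped on the other strand by ANO10, which averaged 29.1 CPM with DMSO and 29.3 CPM with NEL in U937.

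Set against the lipase, the inhibitor and the activator went opposite ways in U937. HILPDA RPKM per PNPLA2 RPKM was 0.317 ± 0.0203 with DMSO and 0.830 ± 0.101 with NEL, and ABHD5 per PNPLA2 was 0.311 ± 0.0393 and 0.170 ± 0.0218 (SD, n = 4). The libraries of the groups did not overlap for either ratio. In KG1A, HILPDA per PNPLA2 was 0.299 ± 0.0404 and 0.294 ± 0.0922, and ABHD5 per PNPLA2 was 0.172 ± 0.00990 and 0.166 ± 0.0220, with overlapping libraries. The second PNPLA2 inhibitor, G0S2, had 3 counts in all 16 libraries together, at most 1 per library, and its level was not detectable at this depth.

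DGAT1 and DGAT2 are unrelated enzymes that catalyse the same reaction. DGAT1 stood at 39.5, 35.7, 36.9 and 35.3 CPM in KG1A with DMSO and fell to 30.9, 24.4, 32.2 and 24.0 CPM with NEL. In U937 it stood at 59.4, 50.9, 54.7 and 46.6 CPM with DMSO and at 51.7, 42.1, 51.6 and 44.2 CPM with NEL. The KG1A groups did not overlap and the U937 groups did, and in each of the 4 groups libraries 1 and 3 were above libraries 2 and 4. The log2 fold change was -0.41 ± 0.09 in KG1A, with -0.29 in libraries 1 and 3 and -0.56 in libraries 2 and 4, and -0.14 ± 0.08 in U937. DGAT2 had 6 counts over the 4 KG1A DMSO libraries and 10 over the 4 NEL libraries, too few to test. In U937 it was at 19.7, 18.6, 21.3 and 20.0 CPM with DMSO and at 18.0, 18.3, 14.9 and 18.1 CPM with NEL. These libraries did not overlap, NEL library 3 was the lowest, and the log2 fold change of -0.18 ± 0.08 was not called. It was -0.29 and called in libraries 1 and 3 alone, and -0.07 and not called in libraries 2 and 4 alone. With the replicate number as a block, DGAT1 (-0.14) and DGAT2 (-0.18) were both called lower in U937, which made 4 members lower in place of 2. Without DMSO library 4 the U937 value of DGAT1 was -0.20 and was called, and without DMSO library 2 that of DGAT2 was -0.21 and was called.

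ACSL1 is a long-chain acyl-CoA synthetase of mitochondria, endoplasmic reticulum and droplets. KG1A held 12.8, 13.2, 12.9 and 12.0 CPM with DMSO and 15.7, 17.2, 15.3 and 15.4 CPM with NEL. U937 held 129, 141, 133 and 146 CPM with DMSO and 177, 186, 169 and 184 CPM with NEL. NEL libraries were above DMSO libraries in both lines without overlap. The log2 fold change was 0.31 ± 0.08 in KG1A, where libraries 1 and 3 alone gave 0.26 and no call, and 0.40 ± 0.05 in U937. ACSL1 made up 2.90% ± 0.138 of the RPKM of the ACSL family in KG1A with DMSO and 3.53% ± 0.198 with NEL. In U937 it made up 22.2% ± 0.672 and 31.2% ± 0.517. Its relatives ACSL3 and ACSL4 fell in U937, ACSL3 by 0.21 ± 0.05 (edgeR adjusted p = 0.00111) and ACSL4 by 0.27 ± 0.04 (edgeR adjusted p = 0.000101) on the log2 scale.

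CPT1A is the outer-membrane enzyme that commits fatty acids to mitochondrial oxidation, and it made up at least 96.9% of the CPT1A, CPT1B and CPT1C RPKM in each library. KG1A held 417, 424, 415 and 420.0 CPM with DMSO and 367, 381, 366 and 387 CPM with NEL. U937 held 103, 101, 99.0 and 98.9 CPM with DMSO and 89.7, 91.4, 92.2 and 97.1 CPM with NEL. In CPM the libraries did not overlap in either line. In RPKM, which has no TMM scaling, the U937 libraries overlapped (14.7 to 15.5 with DMSO and 14.4 to 15.7 with NEL). The changes were small, a log2 fold change of -0.17 ± 0.03 in KG1A and -0.10 ± 0.04 in U937. The U937 call was lost with RLE factors (-0.10), upper quartile factors (-0.04), no filter (-0.12), the stricter filter (-0.09), DESeq2 (-0.10) or the RPKM values (-0.01), in libraries 2 and 4 alone (-0.07), and without DMSO library 1 (-0.09), DMSO library 2 (-0.10), NEL library 1 (-0.08), NEL library 2 (-0.09) or NEL library 3 (-0.10). CPT2, the inner-membrane partner, fell in both lines, by 0.27 ± 0.08 in KG1A (edgeR adjusted p = 0.00853) and 0.21 ± 0.05 in U937 (edgeR adjusted p = 0.0021).

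**Figure D3:**
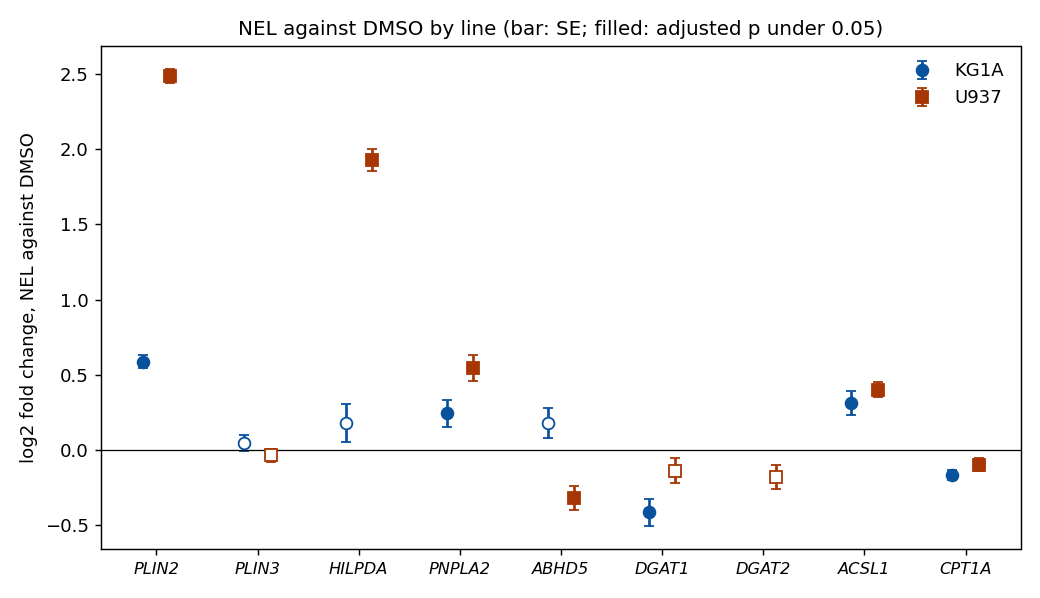
Log2 fold change of NEL against DMSO for the tested members in KG1A (circles) and U937 (squares), with the SE as bars and filled symbols for an adjusted p under 0.05. PLIN2 (0.59 and 2.49) and HILPDA (0.18 and 1.93) lie furthest apart between the lines, and ABHD5 lies above 0 in KG1A and below 0 in U937.

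Whether NEL acted differently on the lines was fitted as an interaction over all 16 libraries. The difference of log2 fold changes, U937 minus KG1A, keeps its sign, so a negative value can come from a stronger fall in U937. Of the 10 members, 2 were called with a positive difference and 1 with a negative one, beside 21.1% and 26.3% of all genes tested. This difference was 1.89 ± 0.06 for PLIN2, 1.74 ± 0.15 for HILPDA and -0.51 ± 0.11 for ABHD5. For DGAT1 (0.27 ± 0.13) and PNPLA2 (0.29 ± 0.14) it was not called, and both were called with the replicate number as a block, which made 4 positive differences in place of 2. PNPLA2 was also called without KG1A DMSO library 4 (0.35), KG1A NEL library 1 (0.38) or U937 DMSO library 1 (0.36), and DGAT1 without KG1A NEL library 3 (0.34). With RLE factors, upper quartile factors or DESeq2 both were called as well, DGAT1 at 0.34 to 0.35 and PNPLA2 at 0.36 to 0.38. The differences for PLIN3 (-0.10 ± 0.06), ACSL1 (0.08 ± 0.09) and CPT1A (0.06 ± 0.05) were not called. That for CPT1A was larger and called with RLE factors (0.15), upper quartile factors (0.13) or DESeq2 (0.15), and that for ACSL1 on log2(RPKM + 0.5) (0.18). DGAT2 had too few KG1A counts for its fitted difference to be read.

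Without NEL the lines held these genes at different levels, with 7 members higher and 2 lower in U937, beside 43% and 43.4% of all genes tested. PLIN3 was 2.46-fold, ABHD5 2.03-fold and ACSL1 10.6-fold higher in U937, with log2 fold changes of 1.30 ± 0.05, 1.02 ± 0.09 and 3.41 ± 0.06. CPT1A was 4.24-fold lower in U937 (log2 fold change -2.08 ± 0.04) and PLIN2 1.33-fold lower (-0.41 ± 0.05). DGAT2 had 913 counts in U937 and 6 in KG1A, a ratio per library total of 143 with a 95% counting interval of 65.5 to 391. DGAT1 differed by 0.50 ± 0.07, HILPDA by 0.27 ± 0.10 and PNPLA2, whose libraries overlapped, by 0.18 ± 0.08. The HILPDA call was lost in libraries 2 and 4 alone (0.14), with DESeq2 (0.26), and without KG1A DMSO library 3 (0.23) or U937 DMSO library 1 (0.22). The PNPLA2 call was lost with RLE factors, the stricter filter or DESeq2 (each 0.17), with limma-voom (0.18), on log2(RPKM + 0.5) without a filter (0.23) and in libraries 2 and 4 alone (0.14). It was also lost without KG1A DMSO library 2 (0.16) or 4 (0.12) and without U937 DMSO library 1 (0.12) or 3 (0.16). The PNPLA2 call held in libraries 1 and 3 alone (0.22, edgeR adjusted p = 0.00229). It also held with the replicate number as a block (0.18, edgeR adjusted p = 0.000113).

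Per length, CPT1A was the most abundant member in KG1A (61.2 ± 0.492 RPKM with DMSO and 57.0 ± 1.88 RPKM with NEL). With DMSO it was followed there by DGAT1 (14.6 RPKM), PLIN3 (14.2 RPKM), PNPLA2 (13.6 RPKM) and PLIN2 (11.7 RPKM), each overlapping the next over libraries, then HILPDA, ABHD5, ACSL1 and DGAT2. With NEL, PLIN2 moved to the second place (18.4 RPKM), overlapping PNPLA2 (16.9 RPKM). In U937 with DMSO the order was PLIN3 (36.3 RPKM), ACSL1 (22.0 RPKM), DGAT1 (21.5 RPKM), PNPLA2 (16.1 RPKM), CPT1A (15.05 RPKM), PLIN2 (9.13 RPKM), HILPDA (5.08 RPKM), ABHD5 (4.95 RPKM) and DGAT2 (2.48 RPKM). There ACSL1 and DGAT1, PNPLA2 and CPT1A, and HILPDA and ABHD5 overlapped. In U937 with NEL, PLIN2 led at 54.5 ± 1.52 RPKM, above PLIN3 (37.7 RPKM) and ACSL1 (31.0 RPKM), and HILPDA (20.6 RPKM) overlapped DGAT1 (20.8 RPKM).

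Around the members, 111 other lipid genes were taken in 7 lists by role. In KG1A, 19 were called higher and 14 lower of 79 tested (median log2 fold change -0.01). In U937, 34 were higher and 26 lower of 87 tested (median 0.08). The share called was 41.8% in KG1A and 69.0% in U937, beside 47.2% and 69.3% of all genes tested. By list it was 20% to 50% in KG1A and 40% to 80% in U937. With the replicate block the counts were 22 and 20 in KG1A and 40 and 31 in U937.

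Of the droplet proteins, 7 were higher and 4 lower in U937 of 14 tested, with a median of 0.12, and in KG1A 1 was higher and 3 lower of 10 (5 lower with the replicate block), with a median of -0.05. PLIN4 had the largest rise in U937 among genes of at least 5 CPM (above), and CIDEB, a protein that helps droplets grow and fuse, fell there from 128 ± 3.67 CPM with DMSO to 80.1 ± 1.84 CPM with NEL (-0.66 ± 0.04 on the log2 scale, edgeR adjusted p = 6.78e-09). In KG1A, BSCL2 (seipin, which shapes new droplets at the endoplasmic reticulum) fell from 5.33 ± 0.811 to 3.28 ± 0.465 CPM (-0.71 ± 0.16, edgeR adjusted p = 0.0021). RAB18 was called higher there by 0.14 ± 0.05 (edgeR adjusted p = 0.0254), a call lost without DMSO library 2 (0.13), DMSO library 4 (0.11) or NEL library 4 (0.12).

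Among genes of glycerolipid and sterol ester synthesis other than DGAT1 and DGAT2, 5 were higher and 1 lower of 12 tested in KG1A (median 0.04). In U937, 4 were higher and 4 lower of 12 (median 0.10). The 2 glycerol-3-phosphate acyltransferases named by the rule differed by line. GPAM, the mitochondrial one, fell in U937 from 32.7 ± 1.80 to 17.1 ± 1.41 CPM (-0.92 ± 0.07, edgeR adjusted p = 6.81e-08) and was not called in KG1A (-0.04 ± 0.09). GPAT3, of the endoplasmic reticulum, rose in KG1A from 8.84 ± 0.917 to 14.1 ± 2.28 CPM (0.66 ± 0.12, edgeR adjusted p = 0.000419) and was not called in U937 (0.06 ± 0.14). The phosphatidate phosphatase LPIN2, which makes diacylglycerol, rose in both lines, by 0.25 ± 0.04 in KG1A and 0.50 ± 0.06 in U937, and the acyltransferase AGPAT3 fell in both, by 0.17 ± 0.05 and 0.23 ± 0.05. The KG1A call of AGPAT3 was lost without DMSO library 1 (-0.14), DMSO library 3 (-0.16) or NEL library 2 (-0.14).

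Of the other lipases, 1 was higher and 2 lower of 6 tested in KG1A (median -0.11) and 3 higher and 2 lower of 7 in U937 (median 0.15), where the replicate block gave 5 higher. MGLL, which cleaves monoacylglycerol in the last step of lipolysis, stood at 109, 114, 108 and 112 CPM in U937 with DMSO and at 181, 180, 178 and 182 CPM with NEL (0.72 ± 0.04, edgeR adjusted p = 1.54e-09). It had 0 counts in KG1A with DMSO, so its level without NEL was at least 1594-fold higher in U937, against 3 counts over the KG1A group. LIPE, the hormone-sensitive lipase that acts after PNPLA2, fell in U937 from 1.70 ± 0.389 to 0.791 ± 0.0871 CPM (-1.07 ± 0.25, edgeR adjusted p = 0.00156), and was not called in KG1A (12.4 and 11.4 CPM). ABHD6 fell in U937 (-0.51 ± 0.08, edgeR adjusted p = 8.74e-05). In KG1A, ABHD12 rose by 0.42 ± 0.09 (edgeR adjusted p = 0.00116) and PNPLA4 fell by 0.50 ± 0.11 (edgeR adjusted p = 0.00147).

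Of the genes of fatty acid uptake, binding and activation, 7 were lower and 3 higher of 14 tested in U937 (median -0.27), a share called of 71.4% beside 69.3% of all genes. In KG1A 4 were higher and 1 lower of 12 (median 0.01), and 5 and 3 with the replicate block. SLC27A4, a fatty acid transport protein with acyl-CoA synthetase activity, stood at 37.6, 38.0, 39.0 and 37.7 CPM in U937 with DMSO and at 11.8, 11.6, 11.3 and 10.9 CPM with NEL (-1.72 ± 0.06, edgeR adjusted p = 3.97e-11). In KG1A it was not called (29.7 and 27.5 CPM). SLC27A2 fell in U937 from 16.8 ± 2.39 to 8.23 ± 1.08 CPM (edgeR adjusted p = 4.82e-06) and rose in KG1A from 112 ± 1.76 to 132 ± 6.16 CPM (edgeR adjusted p = 0.00045). The scavenger receptor CD36, which takes up fatty acids, fell in U937 from 257 ± 13.4 to 200.0 ± 4.25 CPM (-0.34 ± 0.04, edgeR adjusted p = 1.1e-05) and had 9 counts over the KG1A DMSO libraries. The acyl-CoA binding gene ACBD3 rose in U937 (0.63 ± 0.04, edgeR adjusted p = 1.6e-08), and SLC27A1 fell in KG1A (-0.28 ± 0.08, edgeR adjusted p = 0.0107).

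In the carnitine shuttle and mitochondrial oxidation, 5 were higher and 4 lower of 20 tested in KG1A (median 0.01) and 9 higher and 5 lower of 20 in U937 (median 0.12). ACADVL, the dehydrogenase that opens oxidation of long chains, rose in both lines, from 37.7 ± 1.78 to 49.5 ± 2.05 CPM in KG1A (edgeR adjusted p = 3.78e-05) and from 173 ± 8.38 to 278 ± 4.39 CPM in U937 (edgeR adjusted p = 5.78e-09). ETFDH, which passes their electrons to ubiquinone, fell in both, by 0.56 ± 0.09 in KG1A and 0.21 ± 0.06 in U937. ACAD9, an assembly factor of respiratory complex I as well as a dehydrogenase, fell in U937 (-0.61 ± 0.04, edgeR adjusted p = 1.99e-08). Of the peroxisomal genes, 1 was higher and 1 lower of 10 in KG1A (CROT 0.58 ± 0.10 and ECH1 -0.23 ± 0.05; 3 higher with the replicate block), and 3 higher and 1 lower of 10 in U937, where SCP2 rose by 0.42 ± 0.04. The medians were -0.01 and 0.03.

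PPAR receptors are nuclear receptors activated by fatty acids, and PLIN2, HILPDA, ACSL1 and CPT1A are textbook targets of theirs. PPARG had 0 counts in all KG1A libraries and stood in U937 at 20.7, 16.6, 20.7 and 21.6 CPM with DMSO and 47.8, 43.1, 49.3 and 43.9 CPM with NEL (1.23 ± 0.08, edgeR adjusted p = 1.02e-08). PPARD stood at 41.6, 39.3, 39.3 and 35.3 CPM in U937 with DMSO and 78.0, 73.7, 83.1 and 79.2 CPM with NEL (1.03 ± 0.06, edgeR adjusted p = 2.22e-09), and was not called in KG1A (15.6 and 14.5 CPM). PPARA was low in KG1A (1.90 and 3.25 CPM, 0.76 ± 0.24, edgeR adjusted p = 0.0189) and was called higher in U937 (22.3 and 25.0 CPM, 0.19 ± 0.07, edgeR adjusted p = 0.0266), where the groups overlapped. The PPARA call was lost in KG1A without DMSO library 3 (0.60) or NEL library 2 (0.54), and in U937 without DMSO library 1, 3 or 4 or NEL library 2 or 3 (0.15 to 0.17). The coactivator PPARGC1A, at 0 counts in KG1A with DMSO, rose in U937 by 0.27 ± 0.06 (edgeR adjusted p = 0.000824), and PPARGC1B fell there by 0.79 ± 0.06 (edgeR adjusted p = 3.2e-08). In the whole list 5 were higher and 3 lower of 10 in U937 (median 0.03; 5 lower with the replicate block) and 2 higher and 2 lower of 9 in KG1A (median -0.04), where UCP2 rose by 0.79 ± 0.17 and RXRB fell by 0.29 ± 0.07. Whether any receptor has a part in the members' values was not tested.

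**Figure D4:**
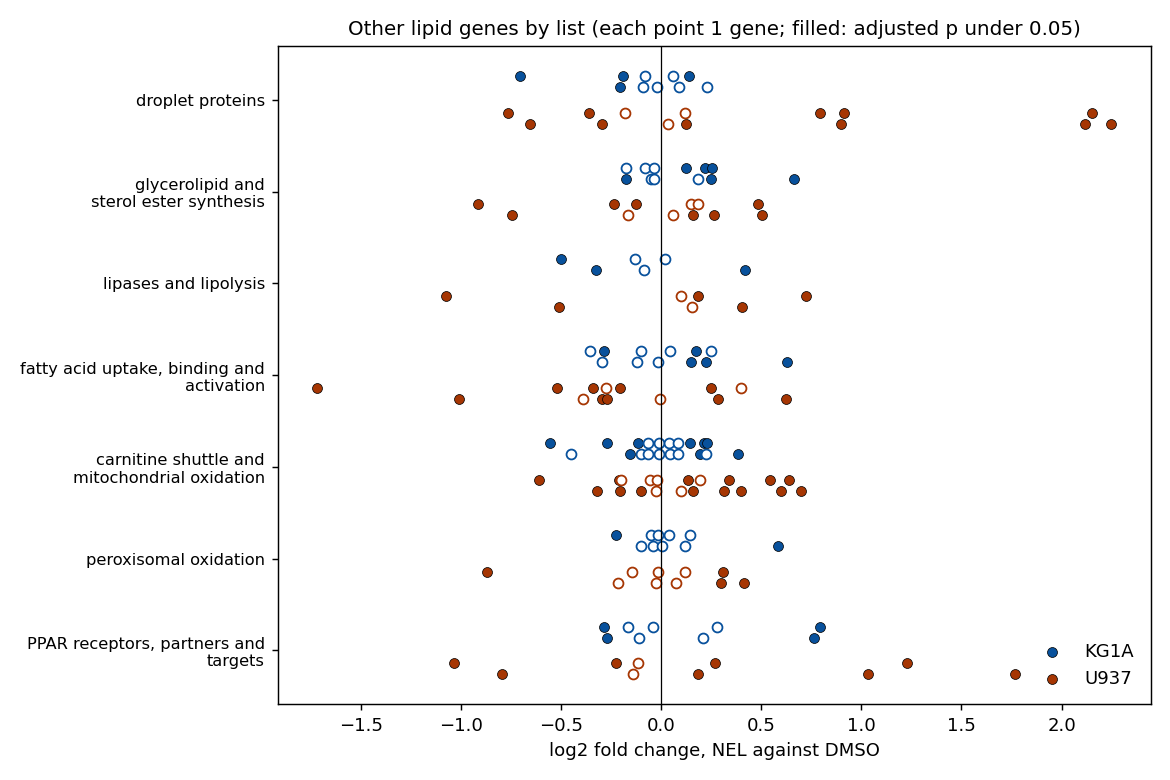
Log2 fold change of NEL against DMSO for each tested gene of the 7 other lipid lists, KG1A above U937 in each list, filled where the adjusted p was under 0.05. The U937 points spread wider, from SLC27A4 at -1.72 to PLIN4 at 2.25, and every list holds called genes on both sides of 0 in each line.

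Between lines without NEL, 47 of these genes were called higher in U937 and 31 lower of 89 tested, 87.6% in all beside 86.4% of all genes. For U937 minus KG1A, 25 had a positive and 24 a negative difference called of 92 tested, 53.3% in all beside 47.4% of all genes, and 32 and 28 with the replicate block.

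The genes whose log2(CPM + 0.5) followed each member most closely over the 16 libraries were taken from the 10630 genes that averaged 5 CPM or more. These correlations describe only 4 groups of libraries that share a line and a treatment. PLIN2 was most like STARD4, a sterol carrier (r = 0.992), and MFAP4 (r = 0.990), and STARD4 went from 44.7 to 63.7 CPM in KG1A and from 37.8 to 124 CPM in U937. HILPDA was most like GLUL, glutamine synthetase (r = 0.993), and ZBTB43 (r = 0.985), and GLUL went from 607 to 1827 CPM in U937 and from 508 to 558 CPM in KG1A. PNPLA2 was most like SMPD1, the lysosomal sphingomyelinase (r = 0.971), and AP1G2 (r = 0.960), and ABHD5 was most like TFR2 (r = 0.990) and POP7 (r = 0.989). ACSL1 followed FLNA and SRGN (both r = 0.999), CPT1A followed CYFIP2 and KMT2A (both r = 0.999), PLIN3 followed MMP2 and ASAH1 (both r = 0.997), and DGAT2 followed MX2 and HTATIP2 (both r = 0.997), patterns in which the lines differ far more than the treatments. DGAT1 was most like DAZAP2 (r = 0.979) and KDM5C (r = 0.976).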

How the data were processed

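Polyadenylated RNA of 16 libraries was sequenced from stranded Kapa libraries, per the labels' protocols. The submitters' processing notes name bcl2fastq 2.18.0.12, TopHat2, HTSeq 0.11.2 and build hg19 (GRCh37). The gene annotation and the strandedness of counting are not stated there. The authors deposited raw read counts per gene, and RPKM values that could be rebuilt from the counts, exon lengths and library totals to within a relative 1.86e-07. The deposited RPKM values were used for levels between genes and for alternatives. Every deposited column matched a sample, and 32562 of 34618 gene IDs matched a symbol, 24496 of them one other than the ID itself.

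The members and lists were chosen with earlier results of these data known. The test was edgeR 4.0.16's quasi-likelihood test in R 4.3.3 with TMM factors, after the filterByExpr filter (at least 10 counts in enough libraries and 15 in all). A call is a Benjamini-Hochberg adjusted p under 0.05 over all genes tested. Each line's 8 libraries gave NEL against DMSO, all 16 gave the interaction of line and drug, and the 8 DMSO libraries gave U937 against KG1A. An SE is the log2 fold change divided by the square root of the F statistic. Shown CPM use TMM factors over all 16 libraries, so they differ slightly from each fit's. The fits within each line were tested on simulated data with independent libraries. Those data held no difference between library sets, so they cannot show how the fits handle it. Figures came from Python 3.11.15 and matplotlib 3.10.9.

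Besides the members, the text names 13 known lipid genes (PLIN1, PLIN4, PLIN5, LIPE, MGLL, ACSL3, ACSL4, CPT2, CD36, PPARA, PPARD, PPARG and PPARGC1A). It further names, per list and line, the called gene with the largest positive and the largest negative log2 fold change and at least 5 CPM in the higher group, and the 2 genes most like each member. It leaves out 1 gene picked by that rule, which is not reported here. Alternatives were factors by RLE or by the upper quartile, a stricter count filter or none, DESeq2 1.42.0, limma 3.58.1 (voom, or trend on log2(RPKM + 0.5) or log2(RPKM + 0.1)), stricter thresholds, each library left out, a replicate block, library sets and 1 model of all libraries. The labels number the libraries of each group 1 to 4. Deviations from the group means of same-numbered DMSO and NEL libraries correlated at 0.288 to 0.368 in all 8 pairs. Other libraries of the same odd or even set reached 0.284 to 0.403, and libraries of different sets -0.398 to -0.278. These values show the 2 sets and cannot show pairing by number, which the replicate block takes as given. The main fits had no term for number or set. Values with the replicate block are given where they change a member's call or move a printed count by over 1.5 times. They are also given for the PNPLA2 calls that were lost when a library was left out.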

Additional observations from a re-analysis of the deposited data

Results flagged for a closer look

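In the U937 NEL group, DGAT2 was at 14.9 CPM in library 3 and at 18.0 to 18.3 CPM in the other libraries, a gap that passed Dixon's test. It was the only one of 34 groups of member values tested to do so, and chance flags about 1 group in 20.

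The NEL effect in U937 minus that in KG1A (log2 scale) was called by edgeR for 3 members, at 1.89 for PLIN2, 1.74 for HILPDA and -0.51 for ABHD5. As the members were selected on these same libraries, these calls are a description. Among the other named lipid genes, the difference was positive for PLIN4 (2.09), PPARD (1.14), BSCL2 (0.82), ACBD3 (0.57), SCP2 (0.46), ETFDH (0.34), ACADVL (0.31), ECH1 (0.29), SLC27A1 (0.27) and LPIN2 (0.25). The value of 3.81 for PNPLA4 rests on 1 count over the U937 DMSO libraries and 15 over the NEL libraries. The difference was negative for SLC27A4 (-1.61), SLC27A2 (-1.25), LIPE (-0.96), UCP2 (-0.94), GPAM (-0.89), CIDEB (-0.72), ACAD9 (-0.70), PPARGC1B (-0.64), GPAT3 (-0.61), PPARA (-0.59), ABHD6 (-0.44) and ACSL4 (-0.27). The genes BSCL2, ETFDH, ECH1 and SLC27A1, with positive differences, fell in KG1A and in U937 fell less (ETFDH) or were not called. Among the negative differences, UCP2, GPAT3 and PPARA rose in KG1A and in U937 rose less (PPARA) or were not called. With 1 library left out, the call was lost in 13 cases for SLC27A1 (0.20 to 0.28), in 7 for PPARA (-0.59 to -0.37) and in 5 for ABHD6 (-0.43 to -0.37). SLC27A2 was called in opposite directions, higher in KG1A and lower in U937.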

How the results depend on the processing

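Over the alternatives, the calls of members were unchanged in 847 of 938 refits, gained in 38, lost in 53 and reversed in 0. A value called in neither fit counts as unchanged even where its sign changed. PLIN3 in U937, for example, ran from -0.06 to 0.05 on the log2 scale. By the same rule the other named lipid genes were unchanged in 3268 refits, with 64 gained, 182 lost and 6 reversed. The reversed ones were the differences between the lines of MGLL and PPARGC1A under limma-trend with log2(RPKM + 0.5), log2(RPKM + 0.1) and no filter, at 0.77, 0.74 and 0.77 for MGLL and 0.31, 0.32 and 0.31 for PPARGC1A. Both are at or near 0 counts in KG1A, where the fitted fold change depends on the prior count.

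With at least 2-fold required, KG1A had 0 members higher and 0 lower and U937 had 2 higher and 0 lower, 0 lower in the difference, and 4 higher and 1 lower between the lines. The other lipid genes then came to 0 and 0 (KG1A), 6 and 4 (U937), 6 and 3 in the difference and 24 and 19 between the lines, and all genes to 398 and 89, 1252 and 510, 925 and 763, and 3123 and 3532. Members lower in U937 were 1 with RLE factors, upper quartile factors, no filter, the stricter filter, DESeq2, each RPKM fit and an adjusted p under 0.01, and 4 with the replicate block, the library set as a covariate and the summed libraries. Members higher in the difference were 5 with RLE factors, upper quartile factors and DESeq2, and 4 with the replicate block, the covariate, the even-numbered libraries alone and the summed libraries. In KG1A the other lipid genes called lower were 9, 9 and 8 with the RPKM fits at pseudocounts of 0.5 and 0.1 and with no filter, where all genes called lower came to 2048. Among the other named lipid genes the replicate block added calls for ACSL3 in KG1A, for ABHD12, ECH1, UCP2 and RXRB in U937 and for ACSL3, ABHD12 and RXRB in the difference, and removed none. Of the calls in KG1A, 50.03% were higher, and 64.5% with the RPKM fit, and in the difference 44.5% and 54.6% with DESeq2. No scaling moved the median of all genes by over 0.1.

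Leaving out each library gave members higher of 2 to 3 and lower of 2 (KG1A), 4 and 1 to 3 (U937), 2 to 3 and 1 in the difference, and 5 to 7 and 2 between the lines. For the other lipid genes it gave 15 to 19 and 12 to 17, 28 to 34 and 25 to 30, 23 to 27 and 20 to 25, and 45 to 48 and 30 to 32. For all genes it gave 3120 to 3230 and 3037 to 3180, 4812 to 4922 and 4807 to 4949, 3254 to 3330 and 4100 to 4180, and 6479 to 6556 and 6553 to 6678.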
